A study of Mus musculus with 16 samples.

Results

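The expression of 8 genes of PPAR-alpha signalling and fat oxidation was examined in ileum mucosa of Slfn3KO and WT mice. The genes are Ppara, Cpt1a, Pdk4, Angptl4, Acaa2, Acadm, Ehhadh and Hadha, and they were taken by symbol from a table of 46078 genes. The rule used no measured value, but earlier results of these data were known when the genes were chosen. RNA was sequenced from 16 mice on the C57Bl/6 background, with 4 libraries each of male Slfn3KO, male WT, female Slfn3KO and female WT. No agent was given to any group, and the sample labels state an age of 8 weeks, while the study's methods give an older age. Per those methods the Slfn3KO line came from another laboratory and was set against WT littermates, and no driver that limits the deletion to the epithelium is named. In the study's feeding experiment, WT mice ate freely and each Slfn3KO mouse received the amount its WT partner had eaten the day before. Whether the sequenced mice came from that experiment is not given in the sources used here. The same holds for whether they had been fed or fasted at collection. Each library is 1 mouse, so the tests below rest on the spread between mice.

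PPAR-alpha, encoded by Ppara, is a nuclear receptor that binds fatty acids and, together with the retinoid X receptor, switches on genes of fatty acid uptake, transport and oxidation. In the small intestine it is active in enterocytes, which meet dietary fat and can also make ketone bodies from it. Fatty acids enter mitochondria through the carnitine shuttle and are then shortened step by step by beta-oxidation, with a parallel pathway in peroxisomes for very long chains.

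Total counts per library lay between 20823279 and 30813117, so 3 counts, the floor used here, equal 0.0974 to 0.144 CPM, where CPM is the count scaled to a library of 1000000. No molecular identifiers were used, and a floor of this kind covers the error of counting alone. The confidence intervals below come from the fits and include the spread between mice. Slfn3 itself had 0 to 2 counts in the 8 Slfn3KO libraries and 0 to 19 counts in the 8 WT libraries, and 4 WT libraries were no higher than the highest Slfn3KO library, so that this gene could not separate the genotypes at this depth. In 4 WT libraries, those numbered 3 and 4 under both sex labels, the levels of Xist and of 4 genes on the Y chromosome do not match the labelled sex. Xist was at 401 and 437 CPM in male WT 4 and 3, and at 0.124 and 0 CPM in female WT 3 and 4. These 4 libraries also had the 4 highest summed levels of 8 B cell genes, from 169.5 to 822 CPM against at most 124 CPM in the other libraries. Values without these 4 libraries are therefore given for the pooled genotype differences of the 8 genes and for their correlations, where r is taken over the 12 remaining libraries with no test. All libraries kept their labels, so males and females below mean the labelled sex. Markers of ileal enterocytes, among them Fabp6 and Slc10a2, summed to between 3222 and 17948 CPM in every library. Genes of the proximal small intestine, among them Gata4 and Lct, summed to between 31.2 and 1516 CPM. In bulk mucosa, fewer cells of a type and less RNA per cell cannot be told apart.

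Promoter windows were looked up for the 8 genes, because PPAR-alpha acts by binding DNA near its targets. RefSeq windows of 300 bases, from 250 bases before to 50 bases after the start, were matched for 6 genes, which leaves Angptl4 and Acaa2 without one here. The receptor's response element is a repeat of the core motif AGGTCA with 1 base between the copies, AGGTCANAGGTCA. On neither strand did any of the 6 windows hold this full repeat, which 0.0396% of 32851 promoter windows hold. The core motif, which counts as part of the full repeat too, lay in the windows of Cpt1a and Acadm, each time on the strand opposite to the gene and so written TGACCT, and 16.3% of all promoter windows hold it on either strand. A match of this kind is a description of letters, and no binding was measured. Both windows are shown with the core motif in capitals. The Cpt1a window is chr19:3323051-3323350 on the plus strand and the Acadm window is chr3:153944594-153944893 on the minus strand of GRCm38.p6.
Cpt1a: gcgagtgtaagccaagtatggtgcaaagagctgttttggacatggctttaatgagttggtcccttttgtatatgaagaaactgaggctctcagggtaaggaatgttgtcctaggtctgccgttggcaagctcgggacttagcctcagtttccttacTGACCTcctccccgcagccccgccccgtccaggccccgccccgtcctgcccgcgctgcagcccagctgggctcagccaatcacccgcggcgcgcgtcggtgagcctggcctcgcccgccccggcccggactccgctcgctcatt
Acadm: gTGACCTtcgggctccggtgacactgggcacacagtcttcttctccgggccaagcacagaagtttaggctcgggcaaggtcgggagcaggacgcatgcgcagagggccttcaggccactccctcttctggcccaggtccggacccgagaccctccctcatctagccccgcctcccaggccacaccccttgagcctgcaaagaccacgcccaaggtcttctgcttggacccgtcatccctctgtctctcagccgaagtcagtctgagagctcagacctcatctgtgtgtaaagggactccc
The core motif begins 94 bases before the start of Cpt1a and 249 bases before the start of Acadm.

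None of the 8 genes passed the threshold in the pooled comparison of Slfn3KO with WT, which asks whether loss of Slfn3 shifts the fat oxidation programme in both sexes together. Cpt1a had a log2 fold change of 0.39 and Angptl4 of -0.81, both with unadjusted p-values under 0.05, and the 3 enzymes Acadm, Ehhadh and Hadha lay between -0.079 and 0.058 on the log2 scale. With the 4 WT libraries left out, these pooled values were 0.36 for Cpt1a, -1.02 for Angptl4 and between -0.24 and -0.026 for the 3 enzymes. To pass, a gene needed 1.5-fold change or more and an adjusted p-value under 0.05 in edgeR (quasi-likelihood F test, Benjamini-Hochberg adjustment), which 0.00% of 14822 genes reached. The 2 members at an unadjusted p-value under 0.05 stand beside 11.9% of all genes, and DESeq2 called 0 members and 0.371% of all genes. The members' median log2 fold change was -0.042 and that of all genes was -0.00365. No member had genotype groups without overlap, which held for 0.0202% of genes in the higher and 0.00675% in the lower direction.

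**Figure D1:**
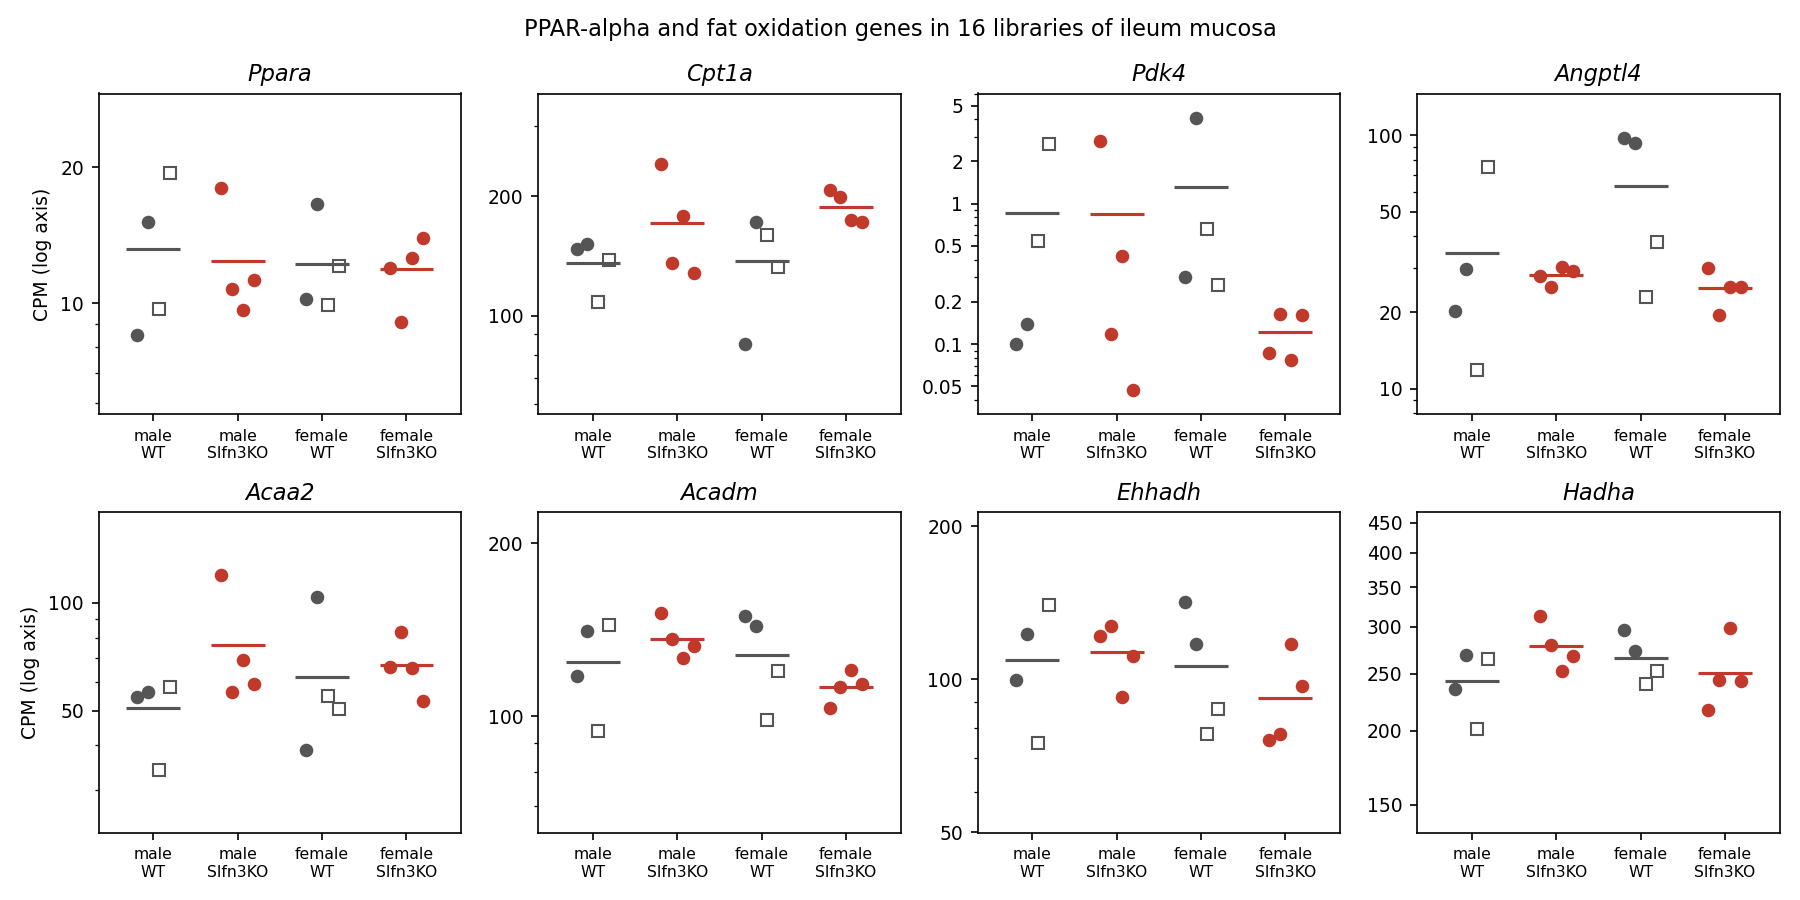
Level of each gene in each of the 16 libraries, in CPM on a log axis that differs between panels, with WT in grey, Slfn3KO in red and the group mean as a line. Open squares are the WT libraries numbered 3 and 4. Angptl4 of all 8 Slfn3KO libraries sits between 19.5 and 30.3 CPM, while 3 WT libraries sit above 75 CPM.

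Per length of exon, the 5 enzymes of fatty acid entry and oxidation had the highest mean levels. Acaa2 had 42.3 ± 14.5 CPM per kb (SD, n = 16), Cpt1a 36.8 ± 9.03, Ehhadh 34.8 ± 7.55, Acadm 32.0 ± 4.61 and Hadha 29.7 ± 3.41, and neighbours in this order overlapped in their ranges. Angptl4 followed with 11.4 ± 8.01 CPM per kb (SD, n = 16), and its highest library reached 29.7, within the range of the 5 enzymes. Ppara lay lower at 3.24 ± 0.866 CPM per kb (SD, n = 16), and Pdk4 lowest at 0.225 ± 0.350.

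Ppara (ENSMUSG00000022383, chromosome 15 from 85734983 to 85802819 in mm10) encodes the receptor. Its level ran from 8.51 through a median of 11.1 to 19.5 CPM in the 8 WT libraries and from 9.08 through 11.6 to 18.03 CPM in the 8 Slfn3KO libraries. The groups overlapped over almost their whole range. The pooled log2 fold change was -0.061 (SE 0.19, 95% confidence interval -0.46 to 0.33), with an adjusted p-value of 0.905 in edgeR with Benjamini-Hochberg adjustment. Its sign turned without female WT 2 and without male WT 4, to 0.020 and 0.042, and without the 4 WT libraries it was -0.055.

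Cpt1a (ENSMUSG00000024900, chromosome 19 from 3323301 to 3385732) encodes the carnitine palmitoyltransferase that loads long-chain fatty acids onto carnitine and so controls their entry into mitochondria. It was at 147, 151, 108 and 138 CPM in male WT 1 to 4 and at 242, 136, 179 and 128 CPM in male Slfn3KO 1 to 4. In female WT 1 to 4 it was at 84.9, 173, 160 and 133 CPM, and in female Slfn3KO 1 to 4 at 207, 199, 175 and 173 CPM. The female groups nearly parted, since the lowest Slfn3KO library and the highest WT library both lay at 173 CPM, while the male groups overlapped. Over all 8 libraries a genotype, the mean of Cpt1a was 180 ± 37.0 CPM for Slfn3KO against 137 ± 28.5 CPM for WT (SD, n = 8 each). The pooled log2 fold change was 0.39 (SE 0.15, 95% confidence interval 0.070 to 0.71), a 1.31-fold difference, with an unadjusted p-value of 0.0202 and an adjusted p-value of 0.336 in edgeR with Benjamini-Hochberg adjustment. It was 0.34 in males and 0.45 in females, and the difference between these was 0.12 (adjusted p-value 0.891, edgeR with Benjamini-Hochberg adjustment). Without those 4 WT libraries with mismatched sex transcripts, the pooled value was 0.36, with an unadjusted p-value of 0.103 where 5.80% of genes had one under 0.05, and it was 0.21 in males and 0.54 in females. Without male Slfn3KO 1 it was 0.29, with an unadjusted p-value of 0.0604.

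Pdk4 (ENSMUSG00000019577, chromosome 6 from 5483351 to 5496309) encodes a kinase that shuts down pyruvate dehydrogenase and so spares glucose when fat is burned. It was near the limit of detection, with 1 to 96 counts in a library and at most 3 counts in 5 of them. Male WT 1 to 4 had 3, 4, 16 and 64 counts, and male Slfn3KO 1 to 4 had 78, 3, 12 and 1. Female WT 1 to 4 had 6, 96, 16 and 6 counts, and female Slfn3KO 1 to 4 had 2, 4, 2 and 4. Single libraries made most of the signal, namely female WT 2 with 4.06 CPM, male Slfn3KO 1 with 2.81 CPM and male WT 4 with 2.66 CPM, while the other 13 libraries stayed at or below 0.663 CPM. The same 3 libraries had the 3 highest levels of Ppara, with 16.6, 18.03 and 19.5 CPM, and they come from both genotypes. In the female libraries the Slfn3KO counts lay below those of WT without overlap, which held for 3.03% of the genes tested in females in the lower direction, but Pdk4 was removed by the low-count filter in that comparison and has no test there. The pooled log2 fold change was -1.44 (SE 0.996, 95% confidence interval -3.56 to 0.67), with an adjusted p-value of 0.585 in edgeR with Benjamini-Hochberg adjustment. With 1 library left out it ran from -2.73 without male Slfn3KO 1 to -0.61 without female WT 2, and without the 4 WT libraries it was -1.62 (SE 1.53). DESeq2 set its p-value aside as an outlier count and gave none. In males the log2 fold change was 0.056, and it ranged from -2.01 without male Slfn3KO 1 to 1.70 without male WT 4. Without the 4 WT libraries the male value was 2.82 (SE 1.72).

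Angptl4 (ENSMUSG00000002289, chromosome 17 from 33773750 to 33781575) encodes a secreted protein that inhibits lipoprotein lipase and is a known target of PPAR receptors in the gut. It was at 20.3, 29.7, 11.9 and 75.1 CPM in male WT 1 to 4, and at 27.9, 25.3, 30.3 and 29.2 CPM in male Slfn3KO 1 to 4. In female WT 1 to 4 it was at 97.5, 93.4, 23.1 and 37.9 CPM, and in female Slfn3KO 1 to 4 at 30.1, 19.5, 25.1 and 25.2 CPM. The Slfn3KO libraries stayed close together in both sexes, while WT libraries lay on both sides of them, with female WT 1, female WT 2 and male WT 4 far above and male WT 3 the lowest of all 16. Xist was at 0.316 CPM or less in 4 WT libraries and at 311 CPM or more in the other 4, of which 3 were these highest libraries and the fourth was male WT 3. Slfn3KO libraries averaged 26.6 ± 3.58 CPM against 48.6 ± 34.6 CPM for WT (SD, n = 8 each).

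In the pooled comparison the log2 fold change of Angptl4 was -0.81 (SE 0.37, 95% confidence interval -1.59 to -0.024), with an unadjusted p-value of 0.0440 and an adjusted p-value of 0.405 in edgeR with Benjamini-Hochberg adjustment. It was the 1 member that also passed 1.5-fold at an unadjusted p-value under 0.05, as 6.64% of all genes did. Without male WT 4 it was -0.55, with an unadjusted p-value of 0.164, and without the 4 WT libraries it was -1.02 (SE 0.33), with an unadjusted p-value of 0.0103 and an adjusted p-value of 0.761 in edgeR with Benjamini-Hochberg adjustment. In females the log2 fold change was -1.34 (SE 0.43, 95% confidence interval -2.32 to -0.36), a level in Slfn3KO of 0.395 times that in WT. The unadjusted p-value was 0.0132, where 17.1% of genes tested in females had one under 0.05 and 9.71% also changed 1.5-fold, and the adjusted p-value was 0.239 in edgeR with Benjamini-Hochberg adjustment, where 0.00% of genes passed. DESeq2 gave -1.36 with an adjusted p-value of 0.0441, and it called 3.60% of genes in females. Without female WT 3 and 4 the female value was -1.94 (SE 0.16), with an adjusted p-value of 0.0559 in edgeR with Benjamini-Hochberg adjustment. In males it was -0.26 (SE 0.48, 95% confidence interval -1.35 to 0.83), and it turned to 0.18 without male WT 3 and 4 and to 0.44 without male WT 4 alone.

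The genotype difference of Angptl4 in libraries labelled female minus that in libraries labelled male was -1.05 (SE 0.70, 95% confidence interval -2.54 to 0.43), with an adjusted p-value of 0.528 in edgeR with Benjamini-Hochberg adjustment. With 1 library left out it ran from -1.78 without male WT 4 to -0.77 without male WT 3, and it passed the threshold in none of these fits. Without the 4 WT libraries it was -2.10 (SE 0.25), with an adjusted p-value of 0.0216, and it passed the threshold there together with 2.38% of 15093 genes. That fit holds 2 WT libraries per sex, with 93.4 and 97.5 CPM in females and 20.3 and 29.7 CPM in males.

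**Figure D2:**
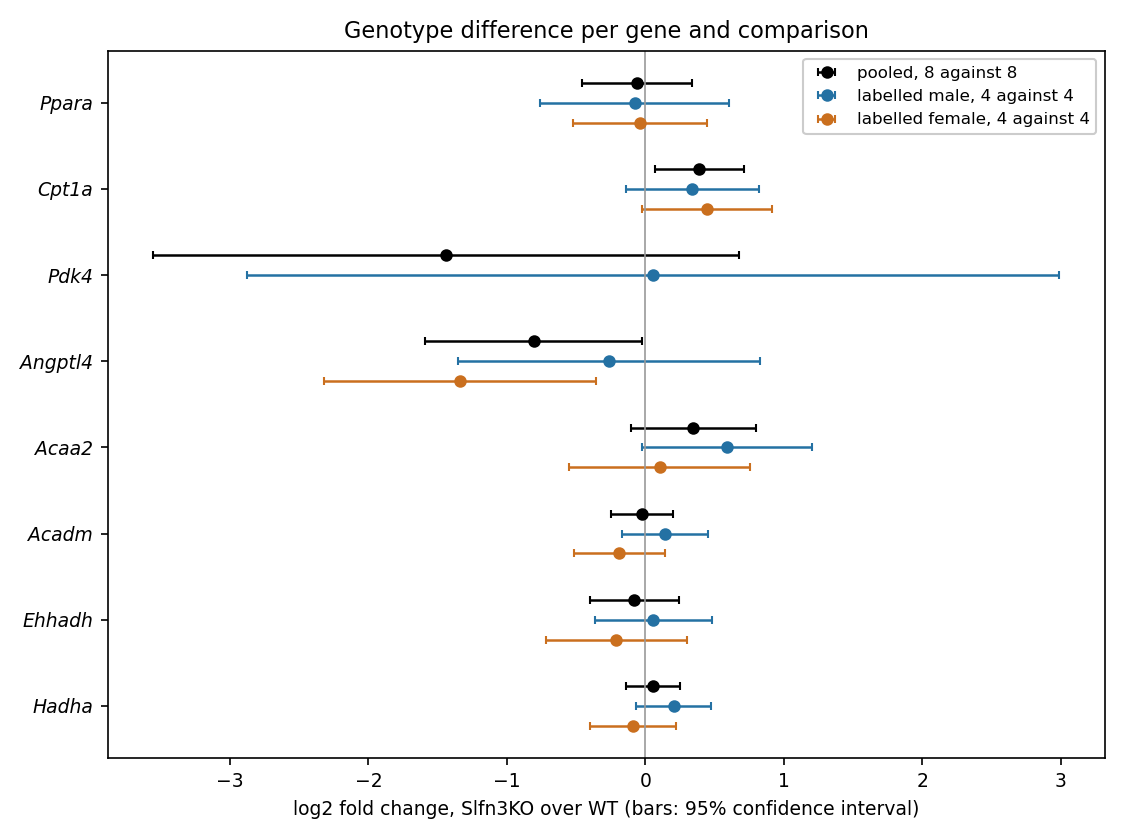
Log2 fold change of Slfn3KO over WT for each of the 8 genes, with its 95% confidence interval as a bar, pooled and by labelled sex. Pdk4 has no female value because it did not pass the filter there. The female interval of Angptl4 runs from -2.32 to -0.36.

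Acadm, Hadha and Acaa2 encode enzymes of mitochondrial beta-oxidation. Acadm (ENSMUSG00000062908, chromosome 3 from 153922357 to 153944632) makes the medium-chain acyl-CoA dehydrogenase. Hadha (ENSMUSG00000025745, chromosome 5 from 30118304 to 30155162) makes the alpha subunit of the trifunctional protein, which carries out the middle steps for long chains. Acaa2 (ENSMUSG00000036880, on chromosome 18) makes the thiolase that releases acetyl-CoA. Ehhadh (ENSMUSG00000022853, chromosome 16 from 21761287 to 21787844) makes the bifunctional enzyme of the peroxisomal pathway. All 4 were well counted, with at least 775 counts in each library.

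Acadm ran from 94.2 through a median of 130.4 to 149 CPM in WT and from 104 through 123 to 151 CPM in Slfn3KO. Hadha ran from 202 through 259 to 296 CPM in WT and from 217 through 260.3 to 313 CPM in Slfn3KO. From the lowest to the highest of the 16 libraries Acadm differed by 1.60-fold and Hadha by 1.55-fold, and the groups overlapped. The pooled log2 fold change was -0.023 (95% confidence interval -0.25 to 0.20) for Acadm and 0.058 (95% confidence interval -0.14 to 0.25) for Hadha, with adjusted p-values of 0.938 and 0.805 in edgeR with Benjamini-Hochberg adjustment. These intervals leave out any pooled difference of 1.5-fold for both genes. Ehhadh ran from 74.8 through 108 to 142 CPM in WT and from 76.1 through 104 to 127 CPM in Slfn3KO. Its pooled log2 fold change was -0.079 (95% confidence interval -0.40 to 0.25). The sign of Acadm turned without female WT 1, female WT 2 and female Slfn3KO 1, to 0.030, 0.013 and 0.0066, and that of Ehhadh turned without female WT 1, to 0.015. The pooled values without the 4 WT libraries were -0.16 for Acadm, -0.24 for Ehhadh and -0.026 for Hadha, none of them called.

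Acaa2 varied more, from 34.2 through 54.7 to 104 CPM in WT and from 53.3 through 66.2 to 120 CPM in Slfn3KO. Male Slfn3KO 1 and female WT 2 were the highest and male WT 3 the lowest. The pooled log2 fold change was 0.35 (SE 0.21, 95% confidence interval -0.11 to 0.80), with an adjusted p-value of 0.540 in edgeR with Benjamini-Hochberg adjustment. Without male Slfn3KO 1 it was 0.18, and without the 4 WT libraries it was 0.17 (SE 0.27). In males it was 0.59 (SE 0.27), with an unadjusted p-value of 0.0564 that was the lowest of the 8 members in that comparison, where 3.84% of genes had one under 0.05. DESeq2 gave Acaa2 in males an unadjusted p-value of 0.0354 and an adjusted p-value of 0.980, and it called 0 members and 0.0991% of all genes. In females it was 0.10, which turned to -0.10 without female WT 3 and 4.

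Within the labelled sexes, none of 8 members tested in males and none of 7 tested in females passed the threshold in edgeR, where 0.00% of genes passed in either comparison. Unadjusted p-values under 0.05 were seen for 0 members in males and for 1, Angptl4, in females. Genotype groups of members tested overlapped throughout in both sexes, whereas they parted for 1.13% (higher) and 1.23% (lower) of genes in males and for 4.86% and 3.03% in females. For the difference between the sexes the corresponding count was 0 of 8 members, beside 11.1% of all genes, and DESeq2 called 0 members and 0.162% of all genes. Without the 4 WT libraries, unadjusted p-values under 0.05 were found for 1 member pooled (Angptl4), 0 in males, 2 in females (Angptl4 and Acadm) and 3 for the difference between the sexes (Angptl4, Pdk4 and Acadm), beside 5.80%, 7.14%, 24.0% and 26.9% of all genes.

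Across the libraries the genes showed more than 1 pattern, with Acadm, Ehhadh and Hadha in one and Cpt1a and Acaa2 in another. Acadm and Ehhadh correlated with r = 0.906 (rho = 0.912, n = 16), Acadm and Hadha with r = 0.844 (rho = 0.847) and Ehhadh and Hadha with r = 0.822 (rho = 0.806). Cpt1a and Acaa2 formed another pair with r = 0.83 (rho = 0.794). Cpt1a had r = -0.073 with Acadm and r = 0.054 with Hadha. Over the 28 pairs of the 8 genes, these 4 positive pairs and Angptl4 with Acadm (r = 0.691, rho = 0.668) had permutation p-values for both r and rho under 0.05 after Benjamini-Hochberg adjustment. The adjusted p-value of r was 0.00028 for Acadm and Ehhadh, 0.0007 for Acadm and Hadha, 0.00077 for Ehhadh and Hadha as well as Cpt1a and Acaa2, and 0.0137 for Angptl4 and Acadm. Those of rho were 0.00028, 0.0014, 0.00233, 0.00364 and 0.0323 in the same order. Angptl4 with Ehhadh passed for r alone (r = 0.638, adjusted permutation p-value 0.0293; rho = 0.518, adjusted permutation p-value 0.149). Without the 2 libraries farthest from the median of the first gene, r stayed between 0.614 and 0.876 for the 5 pairs that passed for both. Over the 12 libraries left without those 4 WT libraries, r was 0.869, 0.822, 0.848 and 0.8004 for the first 4 pairs in this order, 0.571 (rho = 0.517) for Angptl4 and Acadm and 0.501 (rho = 0.308) for Angptl4 and Ehhadh, and Cpt1a had r = -0.37 with Acadm and r = -0.23 with Hadha. Within genotype, r of Angptl4 and Acadm was 0.864 in WT and 0.225 in Slfn3KO, a difference that was not tested. Ppara and Pdk4 had r = 0.604 but rho = 0.256, and r fell to 0.284 without the 2 farthest libraries, so that this relation rests on those.

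**Figure D3:**
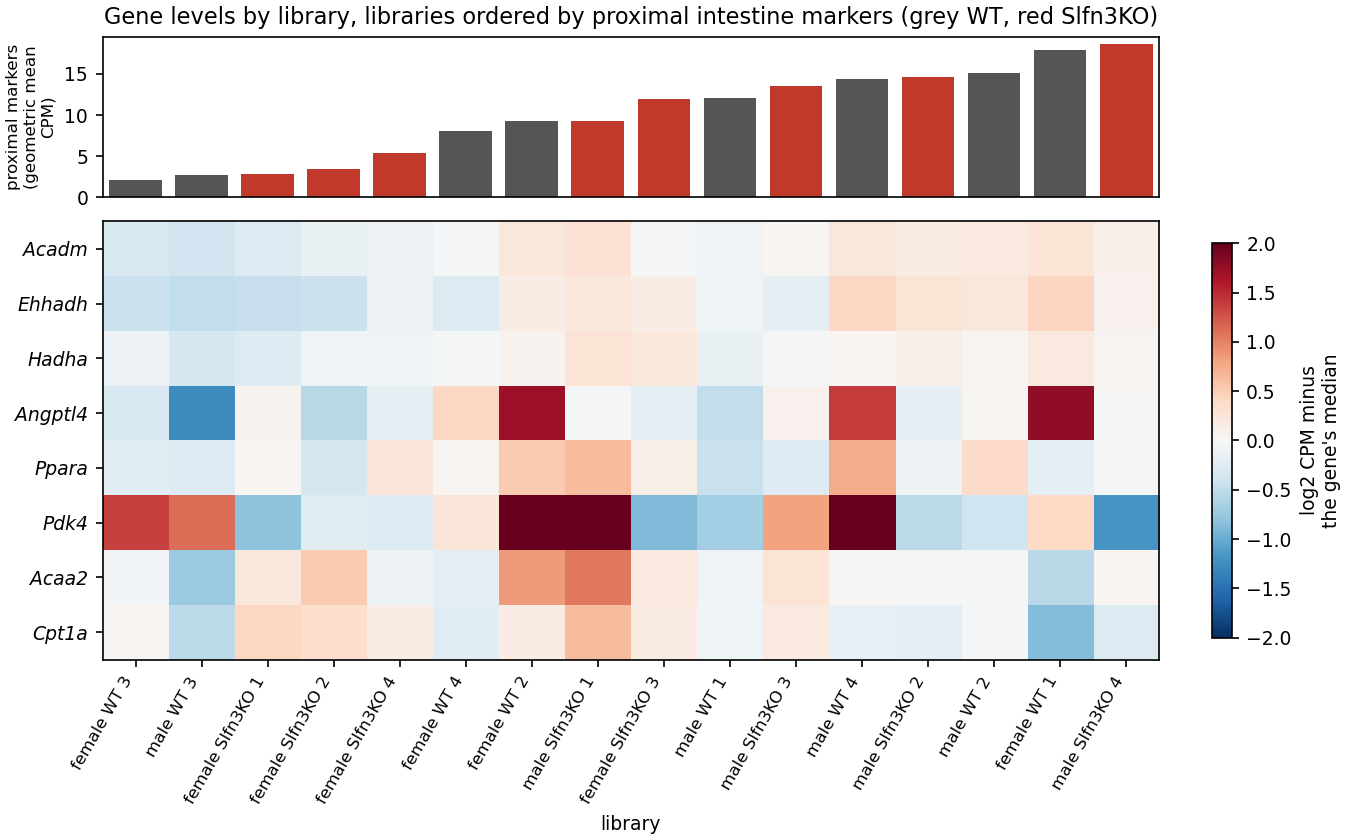
Level of each of the 8 genes in each library as log2 CPM minus the gene's median (colour, cut at -2 and 2), with libraries ordered from left to right by the geometric mean CPM of 5 proximal intestine genes (bars, grey for WT and red for Slfn3KO). Acadm, Ehhadh and Hadha tend to be higher towards the right, in faint colours and not evenly from library to library, and Cpt1a and Acaa2 do not. Hadha, for example, ran only from 7.66 to 8.29 log2 CPM.

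Levels of 3 oxidation enzymes moved with marker genes of the proximal small intestine. A score of the proximal small intestine genes (mean log2 CPM of the 5 of 6 that passed the filter) correlated with Acadm (r = 0.840, rho = 0.747, n = 16), with Ehhadh (r = 0.850, rho = 0.803) and with Hadha (r = 0.701, rho = 0.612). Permutation p-values, adjusted over 24 relations of the 8 genes with 3 marker lists, were 0.0006 for r of both Acadm and Ehhadh and 0.0188 for r of Hadha. For rho they were 0.0148, 0.00624 and 0.101. Without the 2 libraries farthest from the median score, r was 0.726, 0.794 and 0.613, and without the 4 WT libraries it was 0.712, 0.808 and 0.619 (rho = 0.559, 0.636 and 0.392). Within Slfn3KO, r was 0.742, 0.808 and 0.682, and within WT it was 0.908, 0.887 and 0.742. Of the proximal genes, Lct alone reached 1376 CPM, while Onecut2 ran from 0.327 to 1.26 CPM and Cybrd1 from 0.653 to 3.15 CPM. Each of these weighs the same in the score, whereas the sum rests largely on Lct where that gene is high. The proximal genes summed to between 97.1 and 1136 CPM in Slfn3KO and between 31.2 and 1516 CPM in WT, so that both genotypes spanned the range. By labelled sex, they summed to between 97.1 and 195 CPM in female Slfn3KO, 31.2 and 1516 CPM in female WT, 219 and 1136 CPM in male Slfn3KO and 59.2 and 649 CPM in male WT. The score averaged 2.33 ± 0.920 in female Slfn3KO against 2.87 ± 1.30 in female WT, and 3.76 ± 0.415 in male Slfn3KO against 3.203 ± 1.17 in male WT (SD, n = 4 each). The WT means without the 4 WT libraries were 3.69 in females and 3.76 in males. Cpt1a had r = -0.30 with this score (adjusted permutation p-value 0.461), with -0.62 without the 2 farthest libraries, -0.64 without the 4 WT libraries, -0.61 within Slfn3KO and -0.16 within WT. No other of the 24 relations had an adjusted p-value under 0.05, among them those with ileal enterocyte genes, whose r lay between -0.47 and 0.49, and with B cell genes, whose r lay between -0.42 and 0.23. Genes of the epithelium in general, among them Epcam and Vil1, were not set against the 8 genes. They summed to between 8211 CPM in female Slfn3KO 2 and 23212 CPM in female WT 1. Their mean log2 CPM was 10.6 in female WT 3 and 10.9 in male WT 3, which had the lowest proximal scores. It was 11.5 in male Slfn3KO 4 and 11.6 in female WT 1, which had the highest, so general epithelial genes were also higher there. Whether the relation is particular to proximal genes was therefore not tested. The part of these marker levels in the genotype differences was not tested.

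**Figure D4:**
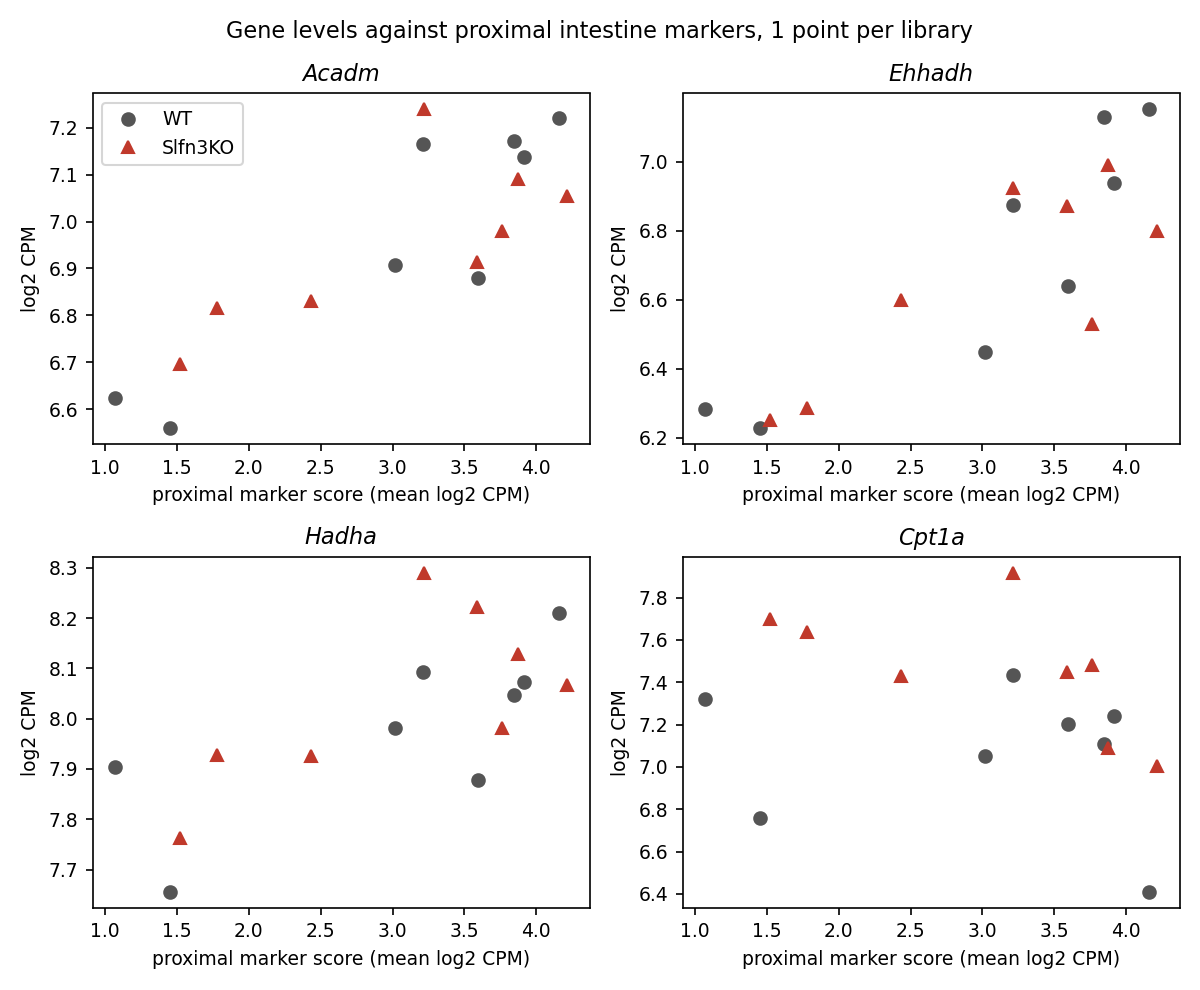
Log2 CPM of Acadm, Ehhadh, Hadha and Cpt1a against the proximal small intestine score (mean log2 CPM), 1 point per library, circles for WT and triangles for Slfn3KO. Acadm, Ehhadh and Hadha rise with the score in both genotypes (r = 0.840, 0.850 and 0.701), while Cpt1a has r = -0.30, and -0.64 without the WT libraries numbered 3 and 4.

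Single libraries stood out over several genes at once. Male Slfn3KO 1 had the highest level of 4 of the 8 genes and was among the 3 highest for 6. Male WT 3 had the lowest level of 5 genes and was among the 3 lowest for 6. Male WT 4 was among the 3 highest for 5 genes, and female WT 1 and female WT 2 for 4 each.

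For each gene, the 3 genes of most similar pattern were sought over the 16 libraries among the 14822 genes tested, by Pearson's r of log2 CPM, as a description without a test. For Ppara they were Rmnd5a (r = 0.883), Plin2 (r = 0.862), which coats lipid droplets, and Golim4 (r = 0.851). For Cpt1a they were Gm830 (r = 0.966), Zfp462 (r = 0.944) and Thumpd3 (r = 0.944), of which Gm830 reached at most 2.02 CPM. For Pdk4 they were Retreg1 (r = 0.897), 1700057G04Rik (r = 0.881) and Zfp622 (r = 0.863). The genes nearest to Angptl4 were Rab40c (r = 0.864), Cyhr1 (r = 0.860) and A430057M04Rik (r = 0.855), and those nearest to Acaa2 were Fam171a1 (r = 0.955), Ramp1 (r = 0.935) and Tcf23 (r = 0.928). Acadm was followed most closely by Sowaha (r = 0.966), Slc4a5 (r = 0.960) and Fbp2 (r = 0.956), which makes a fructose bisphosphatase. Ehhadh was followed by Isoc1 (r = 0.961), Pik3cb (r = 0.954) and Acad11 (r = 0.953), an acyl-CoA dehydrogenase. Hadha was followed by Arid2 (r = 0.931), Mta3 (r = 0.931) and Acadvl (r = 0.923), the very-long-chain acyl-CoA dehydrogenase that hands its products to the trifunctional protein. For these 24 gene pairs r lay between 0.769 and 0.970 without the 4 WT libraries.

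Of 57 other genes of the pathway, 52 passed the filter. The omega-oxidation genes Cyp4a10, Cyp4a14, Cyp4a31 and Cyp4a32 and the hormone gene Fgf21, which in liver are strong targets of PPAR-alpha, had at most 1 count in any library, below the floor. In the pooled comparison 0 of 52 were called by edgeR, 0 had an unadjusted p-value under 0.05 and 0 had an adjusted p-value under 0.05 in DESeq2, while 25 lay above and 27 below 0, with a median log2 fold change of -0.011, where 49.3% of all genes lay above 0. The highest were the acyl-CoA thioesterase Acot1 (log2 fold change 0.94, SE 0.57) and the very-long-chain acyl-CoA synthetase Slc27a2 (0.34, SE 0.25), and the lowest were the thioesterase Acot12 (-1.34, SE 1.06) and the fatty acid binding protein Fabp1 (-1.20, SE 1.01). Acot12 ran from 0.340 to 74.3 CPM in WT and from 0.172 to 48.6 CPM in Slfn3KO, and without female WT 1 the pooled value was -0.53 for Acot12 and -0.015 for Fabp1. With the 4 WT libraries left out, the pooled values were -2.29 for Acot12, -2.36 for Fabp1 and 0.32 for Acot1. In that setting 12 genes of the list lay above 0 and 40 below. There, 1 higher and 5 lower genes had an unadjusted edgeR p-value under 0.05, beside 5.80% of all genes, and 0 were called. Slc27a2 ran from 8.23 to 36.01 CPM in WT and from 21.1 to 37.4 CPM in Slfn3KO, and without the 4 WT libraries its pooled value was -0.11.

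By labelled sex the list's medians lay on opposite sides of 0. Over all 16 libraries the proximal small intestine score given above had its group means in the same directions, lower in female Slfn3KO and higher in male Slfn3KO than in WT of that sex. Without the 4 WT libraries the male means were both 3.76, and the female means were 2.33 in Slfn3KO and 3.69 in WT. The part of this score in the list's values was not tested. In males 42 of 52 genes lay above 0 with a median log2 fold change of 0.18, where 49.6% of all genes lay above 0 with a median of -0.00165. In females 14 of 52 lay above 0 with a median of -0.16, where 48.9% of all genes did with a median of -0.00983. Without the 4 WT libraries these counts were 35 in males and 11 in females, with medians of 0.098 and -0.36, and the pooled median was -0.13. No gene of the list was called by edgeR in either sex, and DESeq2 gave 1 gene, Acat1 in females, an adjusted p-value under 0.05 at less than 1.5-fold. Unadjusted p-values under 0.05 were found for 1 higher and 1 lower gene in males, beside 1.86% and 1.98% of all genes, and for 4 higher and 7 lower genes in females, beside 8.58% and 8.56%. For the difference between the sexes they were found for 3 higher and 11 lower genes, beside 5.80% and 5.26%, with a median log2 difference of -0.44, 11 of 52 genes above 0 where 50.7% of all genes were, and adjusted p-values of 0.441 or more in edgeR with Benjamini-Hochberg adjustment. Without the 4 WT libraries such p-values were found for 1 higher and 1 lower gene in males and for 2 higher and 23 lower genes in females. For the difference between the sexes there were 4 higher and 22 lower genes. Those counts stand beside 7.14%, 24.0% and 26.9% of all genes in either direction, and 0 genes of the list were called. Genes of the list share libraries and vary together, so these counts are not counts of independent events.

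**Figure D5:**
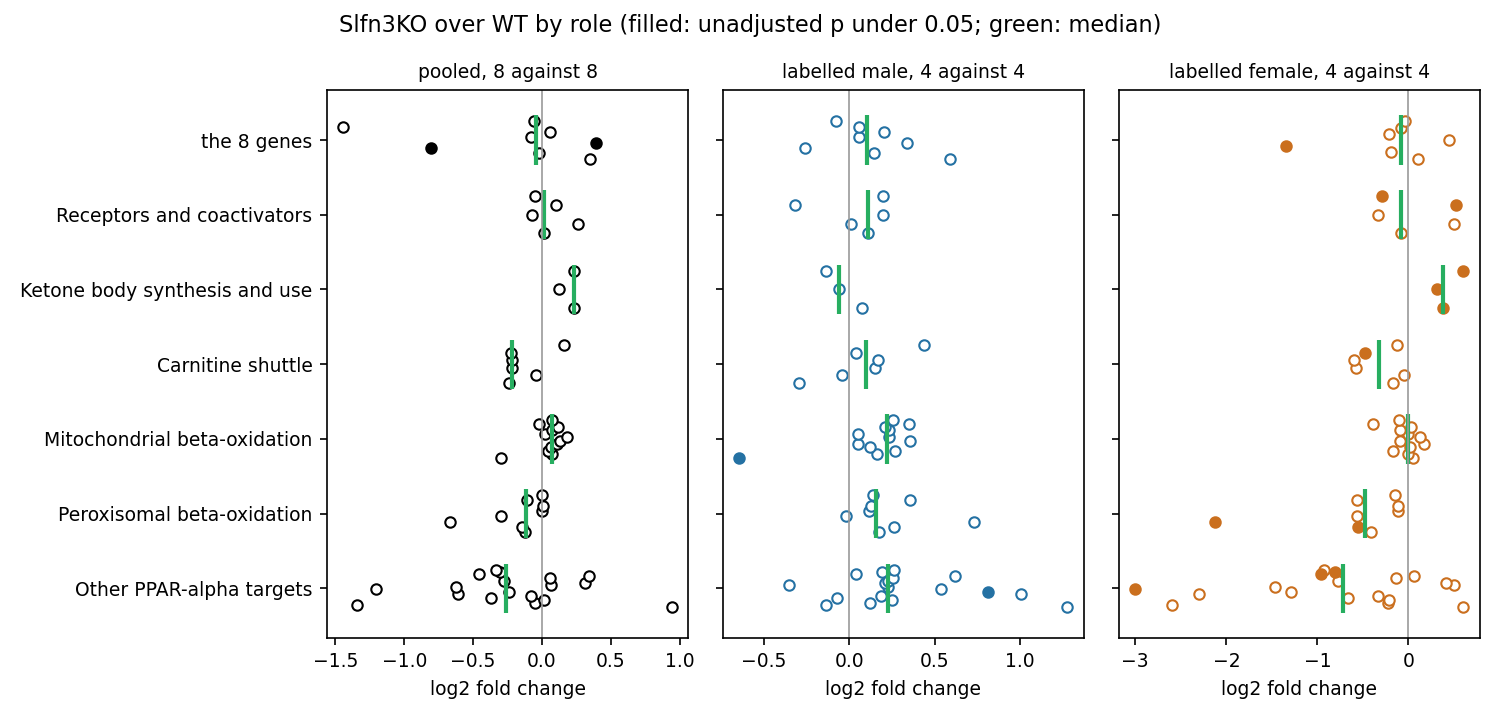
Log2 fold change of Slfn3KO over WT for the 8 genes (top) and the 52 tested genes of the pathway by role, pooled and by labelled sex, with axes that differ between panels. Filled points had an unadjusted p-value under 0.05 and green lines are medians. The list's median is -0.011 pooled, 0.18 in males and -0.16 in females.

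By role, the 8 peroxisomal genes all lay below 0 in females, with a median log2 fold change of -0.48, and 7 of 8 lay above 0 in males, with a median of 0.16. The 6 carnitine shuttle genes also all lay below 0 in females, with a median of -0.32, and 4 of 6 lay above 0 in males, with a median of 0.095. Without the 4 WT libraries the medians were -0.55 in females, with 5 of 6 genes below 0, and 0.17 in males. Of these genes, Cpt1b had only 7 to 26 counts in a library, and 78.59% of its 50-base stretches also occur in another gene. The 12 mitochondrial beta-oxidation genes had a median of -0.00716 in females and 0.22 in males. Without the 4 WT libraries these medians were -0.16 in females, with 10 of 12 genes below 0, and 0.092 in males. The 18 tested other targets, among them the fatty acid carriers Fabp1 and Cd36, had a median of -0.72 in females and 0.23 in males. The 3 tested genes of ketone body synthesis and use, Oxct1, Acat1 and Bdh1, went the other way, with a median of 0.38 in females and -0.059 in males. In females all 3 lay above 0 with unadjusted edgeR p-values under 0.05, where 8.58% of all genes were higher at that level. Without female WT 3 and 4 only 1 of the 3, Oxct1, kept such a p-value, beside 24.0% of all genes in either direction. The medians without the 4 WT libraries were 0.32 in females and -0.20 in males. Bdh1, which interconverts the 2 main ketone bodies, had 0.31 (SE 0.11) in females and 0.27 without female WT 3 and 4. The 5 receptors and coactivators had a median of -0.079 in females and 0.11 in males, with 1 gene higher and 1 lower at an unadjusted p-value under 0.05 in females. Their medians without the 4 WT libraries were -0.23 in females and 0.044 in males. The tests of the difference between the sexes passed the threshold for none of these genes.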

How the data were processed

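RNA of ileum mucosa from 16 mice was sequenced, 4 per labelled sex and genotype. The authors deposited 1 table of raw counts per gene, made from trimmed reads aligned to mm10. The study's methods name HTSeq as the counter, whereas the table's header names featureCounts with reverse-stranded counting, and the submitters' processing notes list featureCounts 1.4.6 and DESeq2 1.22.2. The deposited counts are not normalized. Symbols came from GENCODE M21, which matched 45143 of 46078 identifiers. At most 2.04% of the 50-base stretches of any of the 8 genes also occur in other genes.

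Library totals of 20823279 to 30813117 counts set the precision. Samples were grouped by the deposited labels. Genotype differences were fitted over all genes in edgeR 4.0.16 (R 4.3.3), using TMM normalization, filterByExpr by group and quasi-likelihood F tests with robust fitting. Benjamini-Hochberg adjustment ran over 14822 genes for the pooled fit and for the sex difference, 14124 in males and 14064 in females. The sex label was a covariate of the pooled fit, single-sex fits had none, and the sex difference was an interaction term, female minus male. A gene was called at an adjusted p-value under 0.05 and at least 1.5-fold. Standard errors are the log2 fold change over the square root of F. CPM uses TMM library sizes, and log2 CPM has a prior count of 2. Relations across libraries were tested by 100000 permutations, two-sided, and their smallest possible p-value is 1e-05. The steps were tested on simulated counts.

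Alternatives were RLE factors, DESeq2 1.42.0, no filter, unadjusted p-values, no sex covariate, the replicate number as a block, each library left out in turn, and all WT libraries numbered 3 and 4 left out. Named by rule besides the 8 genes are the 2 highest and 2 lowest pooled changes of the pathway list, and the 3 genes most like each of the 8 genes. Cd36, Oxct1, Acat1, Bdh1, Acadl and Hadhb were named after their values were seen. Correlations without the 4 WT libraries were added after the data were seen. In the pathway list, 2 genes are not reported here. The 8 genes, the pathway and marker lists and these alternatives were chosen with earlier results of these data known. Promoters are RefSeq windows on GRCm38.p6, and figures were drawn with matplotlib 3.10.9.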

Additional observations from a re-analysis of the deposited data

Results flagged for a closer look

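Within the 4 groups, 32 sets of 4 libraries were checked for a library far from the other 3, and 3 were found, where chance alone gives about 1 in 20. Pdk4 was at 4.06 CPM in female WT 2, while the other 3 female WT libraries lay between 0.263 and 0.663 CPM. Pdk4 was also at 2.81 CPM in male Slfn3KO 1, while the other 3 male Slfn3KO libraries lay between 0.0475 and 0.424 CPM. Acaa2 was at 34.2 CPM in male WT 3, below the 54.5 to 58.4 CPM of the other 3 male WT libraries.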

How the results depend on the processing

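Counts of called genes depended on the tool and the call rule. The number of members called pooled was 0 and became 1 (Angptl4) at an unadjusted p-value with 1.5-fold, while all genes called went from 0 to 55 with DESeq2 and 984 unadjusted. In males all genes called went from 0 to 14 with DESeq2 and 272 unadjusted. In females the members called went from 0 to 1 (Angptl4) under both, and all genes to 506 with DESeq2 and 1366 unadjusted. For the difference between the sexes, all genes called went from 0 to 24 with DESeq2, 946 unadjusted and 359 without the 4 WT libraries, and members to 1 (Angptl4) in that last setting. With RLE factors, without the filter and without the sex covariate, direction and call did not change for any of the results computed.

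Without the 4 WT libraries the sign turned for Hadha (-0.026) and Slc27a2 (-0.11) pooled, for Ppara (0.079) and Angptl4 (0.18) in males, for Acaa2 in females (-0.10) and for Ppara in the difference between the sexes (-0.25). None of these values was called in either setting, and the cause was not tested. With each library left out in turn, 0 genes were called in any comparison, and log2 fold changes ran across 0 for Ppara (-0.17 to 0.042), Acadm (-0.088 to 0.030) and Ehhadh (-0.16 to 0.015) pooled. In males this held for Ppara (-0.32 to 0.15), Pdk4 (-2.01 to 1.70), Angptl4 (-0.54 to 0.44) and Ehhadh (-0.077 to 0.19). In females it held for Ppara (-0.13 to 0.15) and Acaa2 (-0.063 to 0.47), and in the difference between the sexes for Ppara (-0.19 to 0.27) and Cpt1a (-0.059 to 0.32).

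Replicate numbers in the labels belong to different mice. Deviations of same-numbered libraries from their group means correlated with r of 0.138 to 0.518 in males, where 2 of 4 numbers matched best with their own, and -0.36 to 0.14 in females, where 0 of 4 did, so the numbers were not taken as a pairing. With the replicate number as a block, 0 members were called in each of the 4 comparisons, and 2 values changed sign, namely Pdk4 (-0.15) and Angptl4 (0.056) in males.

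Depth limits Pdk4, which had at most 3 counts in 5 libraries, and the 5 pathway genes with at most 1 count. Leaving out the 4 WT libraries with mismatched sex transcripts leaves 2 WT libraries per sex.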

Other observations

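In libraries labelled female, 2 enzymes that handle ketone bodies in mitochondria had every Slfn3KO library above every WT library, and they were picked after their values were seen. Oxct1, which activates ketone bodies for use outside the liver, had a log2 fold change of 0.60 (SE 0.19) with Slfn3KO and WT libraries that did not overlap, and 0.89 without female WT 3 and 4. Acat1, the mitochondrial acetoacetyl-CoA thiolase, had 0.38 (SE 0.11), also without overlap, and 0.32 (SE 0.14) without female WT 3 and 4, and DESeq2 gave it an adjusted p-value of 0.0498 at a change under 1.5-fold. Groups that did not overlap held for 4.86% of genes tested in females in the higher direction. Adjusted p-values in edgeR with Benjamini-Hochberg adjustment were 0.236 for Acat1 and 0.239 for Oxct1.

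In libraries labelled male, 2 genes of mitochondrial beta-oxidation had groups without overlap, where 1.23% of genes did so in the lower and 1.13% in the higher direction. Acadl, the long-chain acyl-CoA dehydrogenase, had a log2 fold change of -0.65 (SE 0.20), and Hadhb, the beta subunit of the trifunctional protein, had 0.25 (SE 0.12), and without male WT 3 and 4 they had -0.61 (SE 0.26) and 0.18 (SE 0.12). The alpha subunit Hadha had 0.20 (SE 0.12) in the same comparison. For the difference between the sexes, Acadl had 0.70 (SE 0.33) and Hadhb had -0.35 (SE 0.16), with adjusted p-values of 0.451 and 0.447 in edgeR with Benjamini-Hochberg adjustment.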
